A study of Mus musculus with 16 samples.

Results

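The presynaptic vesicle and release genes code for the proteins with which a nerve terminal stores transmitter in vesicles and releases it. Members were chosen by gene symbol alone: the numbered synaptotagmins (Syt), synapsins (Syn), synaptogyrins (Syngr), Synpr, Syp, SV2 proteins, VAMPs, Snap and syntaxin (Stx) genes, syntaxin-binding proteins (Stxbp), complexins (Cplx), Rab3 GTPases, RIMs, Unc13 genes, Bsn and Pclo. The rule took 79 of the 20436 genes in the tables, and no measured value entered it. By role they fall into 17 synaptotagmins, called calcium sensors here although several of them do not bind calcium, 16 vesicle membrane and surface proteins, 5 SNAREs of synaptic release (such as Vamp2, Snap25 and Stx1a), 21 other SNAREs and the clathrin adaptor Snap91, 10 regulators of SNARE assembly, and 10 active zone and priming proteins. The symbol rule also takes in SNAREs of other membranes, such as the endosomal Stx12.

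In a nerve terminal, VAMP on the vesicle and SNAP-25 and syntaxin 1 on the plasma membrane zip into the SNARE complex that drives fusion. The Munc13 proteins (Unc13) prepare that assembly, complexins hold it ready, and synaptotagmin triggers it when calcium enters. RIMs, bassoon (Bsn) and piccolo (Pclo) form the active zone scaffold where vesicles dock, and synapsins tether the reserve pool behind it.

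Cerebral cortex came from mice at postnatal day 28 to 35, all of them FVB.129P2-/Pde6b+ Tyr c-ch //AntJ mice. The 4 genotypes were wild type (WT), knockout of Fmr1 alone (Fmr1 KO), knockout of Cpeb1 alone (Cpeb1 KO) and knockout of both genes (DKO); the labels name no allele and no sex. Fmr1 codes for FMRP, an RNA-binding protein found on translating ribosomes and lost in fragile X syndrome, and Cpeb1 for a protein that binds mRNA and regulates its poly(A) tail and translation. Each genotype had 2 libraries of cytoplasmic RNA-seq and 2 of ribosome footprints (RNA fragments protected by ribosomes), with cycloheximide and harringtonine in the lysis buffer of all groups.

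Library totals were 5423925 to 10246482 counts in RNA-seq and 16239703 to 24973757 in footprints, and the presynaptic genes took 1.36% to 1.58% of the RNA counts and 2.11% to 2.25% of the footprint counts. The targeted genes followed the labels. Fmr1 RNA was 100.1 ± 12.4 CPM (counts divided by the library's TMM-adjusted total; mean ± SD, n = 2, as for all ± values of WT levels below) in WT and 22.1 ± 5.30 in the Fmr1 KO, and Cpeb1 RNA was 38.7 ± 7.33 in WT and 17.8 ± 2.63 in the Cpeb1 KO. The markers of neurons, glia and endothelium that were checked had counts in every library, excitatory cortical markers included. The labels do not say whether libraries 1 and 2 of a genotype came from separate animals, so p-values measure the spread between these libraries, which may be technical.

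Of the 79 genes, 72 passed the filter on low counts in RNA-seq, 73 in footprints and 71 in the joint test of both. Cplx4, Syngr4, Syt8, Syt15 and Stx11 failed in both assays, Unc13d and Vamp5 in RNA-seq and Stx19 in footprints. Syt8 had 0 counts in all 16 libraries, and Cplx4, a retinal complexin, had 0 RNA counts and 7 footprint counts over 8 libraries each. The filter was applied to the 8 libraries of each assay together, and the numbers below describe the members that passed it.

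In WT cortex the RNAs of the release machinery were among the highest of the transcriptome. Levels between genes are given as CPM per kb of coding length. Snap25, the plasma membrane SNARE, stood first with 2238 and 1891 CPM per kb in the 2 WT RNA libraries. Syp (synaptophysin, an abundant vesicle membrane protein) followed at 850 ± 17.8, Rab3a (the vesicle GTPase that RIM binds) at 793 ± 48.2, Syt1 (the fast calcium sensor) at 566 ± 6.95 and Vamp2 (the vesicle SNARE) at 501 ± 3.84. These genes lay above the 99th percentile of all genes tested in RNA, with Vamp2 at percentile 99.2. The SDs of Syp and Rab3a are of a size with the gap between them, so the order of those neighbours is not settled by 2 libraries. The active zone proteins came lower: Rims1 at 176 ± 12.5, Unc13a (Munc13-1) at 118 ± 25.4, Bsn at 101 ± 25.3 and Pclo at 62.3 ± 6.52 CPM per kb. The length of Rims1 in the tables is a mean over its isoforms, which its level inherits.

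In many families 1 or 2 paralogs carried most of the RNA. Syt1 made up 36.6% ± 1.07 of the summed RNA level of the 17 synaptotagmins and 50.8% ± 1.13 of their summed footprint level, ahead of Syt11 with 14.9% ± 0.478 and 18.4% ± 0.711. Vamp2 held 75.2% ± 2.38 of VAMP RNA and 85.3% ± 0.109 of VAMP footprints. Unc13a held 82.2% ± 3.09 of Unc13 RNA and 92.0% ± 0.0413 of Unc13 footprints. Rab3a had 72.4% ± 0.101 of Rab3 RNA and Snap25 75.9% ± 2.57 of the RNA of the 5 Snap genes. The clathrin adaptor Snap91 is counted among these 5 by its symbol and is not a paralog of Snap25. The synapsins were shared between Syn1 with 50.7% ± 1.37 and Syn2 with 47.5% ± 0.966, and the SV2 genes between Sv2a with 46.6% ± 1.1 and Sv2b with 49.8% ± 1.82. Complexin RNA was split between Cplx1 with 59.0% ± 1.24 and Cplx2 with 38.2% ± 1.04. Stx1a had 20.5% ± 3.15 of the RNA and 18.3% ± 0.980 of the footprints of the 15 syntaxins. RIM RNA was led by Rims1 with 50.5% ± 1.27, whereas its footprints were divided between Rims1 with 34.3% ± 1.00 and Rims4, a short RIM, with 29.7% ± 0.637. The coding length of Rims2 was 4072 nt in RNA and 1953 nt in footprints, a mismatch that enters the RIM shares.

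**Figure D1:**
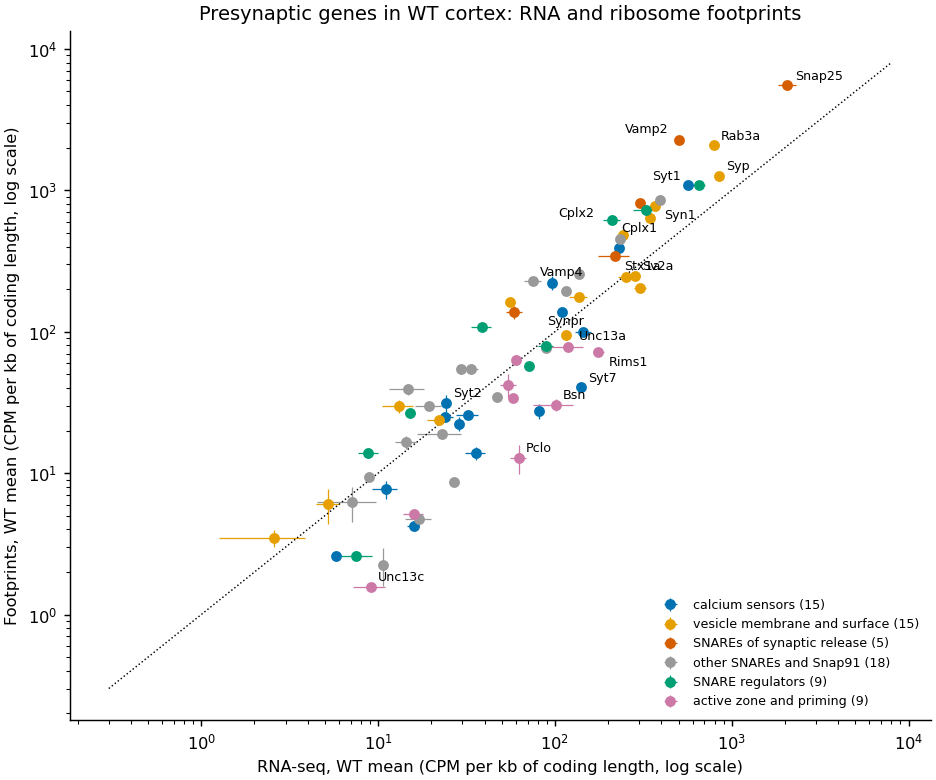
RNA level (x) against footprint level (y) of the 71 presynaptic genes tested in both assays, in CPM per kb of coding length on log axes; points are means and bars SDs of 2 WT libraries, and the dotted line marks equal values. Snap25 lies at the top right in both assays, Vamp2 well above the line, and Bsn, Pclo and Unc13c below it.

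Footprints per RNA separated the roles. The measure is log2 of the ratio of footprint to RNA level, each in CPM per kb, and it reflects ribosome density on an mRNA relative to other mRNAs. Its median over the 71 presynaptic genes in WT was 0.19, beside -0.14 over the 13018 genes with a value, and 41 of the 71 lay above that all-gene median. Of the SNAREs of synaptic release 5 of 5 lay above it, with a median of 1.42; of the SNARE regulators 6 of 9 did, with a median of 0.75, and of the vesicle proteins 12 of 15, with a median of 0.54. The other SNAREs had a median of 0.42 with 11 of 18 above. The calcium sensors had 6 of 15 above and a median of -0.36, and the active zone proteins 1 of 9, Rims4, and a median of -1.28.

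Vamp2 was the highest of the 71 genes with 2.19 and 2.17 in the 2 WT libraries, at percentile 99.7 of all genes. Vamp4, a SNARE of the trans-Golgi and endosomes, had 1.68 and 1.53, Cplx2 1.47 and 1.60, and Snap25 a mean of 1.43 ± 0.0936. Among the low values were those of Unc13c (Munc13-3, best known from cerebellum) with -2.34 and -2.70, Pclo with -2.64 and -1.95, Syt7 (a slow, high-affinity calcium sensor) with -1.77 and -1.82, and Bsn with -2.07 and -1.35. The libraries of Vamp2 and Syt7 lay close together, while those of Bsn and Pclo differed by more than 0.6 on the log2 scale. The roles differ in coding length as well, from 348 nt for Vamp2 to 14895 nt for Pclo. The Pearson correlation of footprints per RNA with log2 coding length was -0.56 over the 71 genes and -0.48 over the 13018, a description across genes that share libraries, and the part of length in the differences between roles was not tested. In 99.6% of genes with 1 transcript the footprint feature was 57 nt shorter than the RNA feature, which weighs most on the shortest of them. For genes with several isoforms the lengths of the 2 assays can differ more. Rims2 had 4072 nt in RNA and 1953 nt in footprints, which enters its footprints per RNA.

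**Figure D2:**
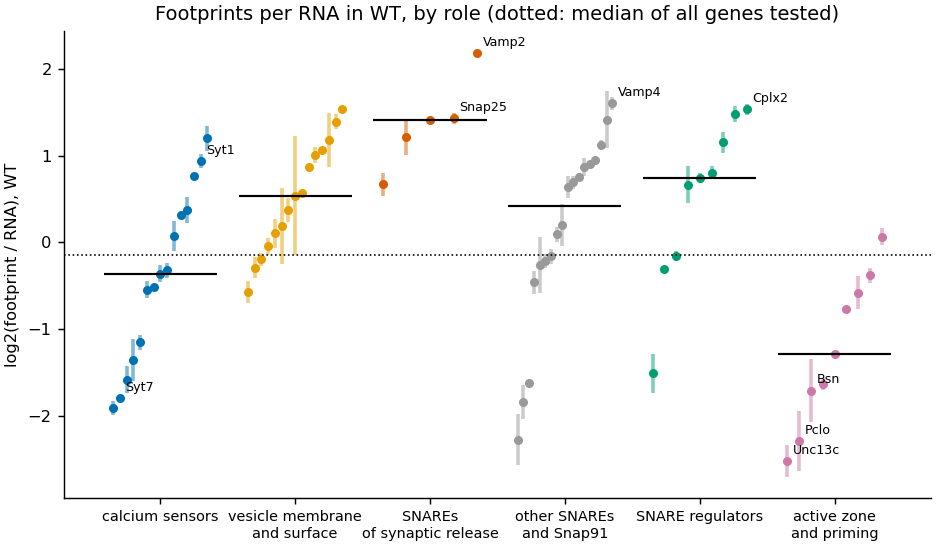
Footprints per RNA (log2) in WT for each presynaptic gene, grouped by role; points are means of 2 libraries, coloured bars span the 2 libraries, black lines are role medians and the dotted line is the median of all genes, -0.14. The 5 SNAREs of synaptic release lie above the dotted line, and 8 of the 9 active zone and priming genes below it.

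The pooled RNA comparison set both single knockouts (4 libraries) against WT and DKO (4 libraries), a grouping for which the authors also deposited a table. Syt7 and Bsn RNA fell in the single knockouts and Synpr RNA rose. These 3 were the presynaptic genes called by edgeR's quasi-likelihood test at a Benjamini-Hochberg adjusted p under 0.05 over all genes, 3 of 72 or 4.17%, below the 7.31% of all 13287 genes tested that were called. The median log2 change of the 72 genes was -0.02 and that of all genes 0.03. The members were called no more often than genes at large. In bulk tissue, fewer cells of a type and less RNA per cell cannot be told apart.

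Syt7 RNA was 215 and 225 CPM in WT, 163 and 185 in the Fmr1 KO, 148 and 191 in the Cpeb1 KO, and 238 and 238 in DKO. The 4 single knockout libraries all lay below the 4 others. The log2 change was -0.42 ± 0.078 (SE; adjusted p = 0.0091, edgeR), with -0.54 between libraries numbered 1 and -0.30 between those numbered 2, and the call held when any 1 of the 8 libraries was left out (adjusted p up to 0.0477 over 14 alternatives, edgeR or DESeq2). Syt7 (chromosome 19, 10388802 to 10453181, GRCm38.p6) had 1186 to 2147 counts per RNA library.

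Bsn, the gene of the giant scaffold bassoon, had 1405 and 982 CPM in WT, 728 and 777 in the Fmr1 KO, 621 and 883 in the Cpeb1 KO, and 1386 and 955 in DKO. The groups did not overlap, but library 1 of WT and of DKO stood well above library 2. The log2 change was -0.64 ± 0.131 (adjusted p = 0.0129, edgeR), made up of -1.05 between libraries numbered 1 and -0.23 between those numbered 2. The call was lost without Cpeb1 KO library 1 (-0.50, adjusted p = 0.0534, edgeR) and without Fmr1 KO library 1 (-0.59, adjusted p = 0.0646, edgeR), the highest of 14 alternatives, whose lowest was 1.01e-05. It was also lost when the 4 genotypes were fitted separately rather than as 2 pooled sides (adjusted p = 0.0573, edgeR).

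Synpr, which codes for the vesicle membrane protein synaptoporin, had 97.5 and 90.6 CPM in WT, 121 and 109 in the Fmr1 KO, 126 and 97.4 in the Cpeb1 KO, and 93.1 and 88.1 in DKO. Cpeb1 KO library 2 and WT library 1 were level, and the other single knockout libraries lay above. The log2 change was 0.29 ± 0.077 (adjusted p = 0.0347, edgeR); it lost its call when any of 5 libraries was left out (Cpeb1 KO 1, DKO 1, Fmr1 KO 1 or 2, or WT 1), with adjusted p from 0.0937 to 0.153 (edgeR). The Synpr call was also lost in the fit of 4 separate genotypes (adjusted p = 0.0786, edgeR) and without the replicate number as a block (adjusted p = 0.0906, edgeR), so 7 of 14 alternatives did not keep it.

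The 250 bases before the RefSeq start sites of 2 of these 3 genes, Bsn and Synpr, are shown because their RNAs moved in opposite directions in the pooled comparison. They read 5′ to 3′ on the gene's strand, build GRCm38.p6, from chr9:108190384-108190633 (minus strand) and chr14:13284530-13284779 (plus strand). The start site in the upstream table lies inside the span that the gene table gives Bsn (chromosome 9, 108096022 to 108190419), so the end of the Bsn window, with its marked motif, is within the annotated gene. Capitals mark matches on either strand to any of 6 motifs: the GC box with the letters GGGCGG, the box CCAAT, the TATA box with TATAAA, the E-box with CACGTG, the cyclic AMP element with TGACGTCA, and the NRF1 core with TGCGCA.
Bsn: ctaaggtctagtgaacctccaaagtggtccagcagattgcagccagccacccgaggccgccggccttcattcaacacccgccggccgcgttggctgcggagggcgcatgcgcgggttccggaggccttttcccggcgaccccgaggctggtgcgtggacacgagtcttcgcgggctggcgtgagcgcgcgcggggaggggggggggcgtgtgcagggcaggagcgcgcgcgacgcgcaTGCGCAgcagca
Synpr: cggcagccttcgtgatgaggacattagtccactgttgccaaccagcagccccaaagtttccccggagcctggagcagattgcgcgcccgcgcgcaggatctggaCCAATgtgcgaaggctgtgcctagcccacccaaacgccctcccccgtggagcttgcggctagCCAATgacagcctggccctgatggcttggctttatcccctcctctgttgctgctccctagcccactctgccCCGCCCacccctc

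The Bsn window held 1 match, TGCGCA, a motif present in 6.43% of the 32851 upstream windows of that length in the table and in 14.1% of the 78 member windows. The Synpr window held CCAAT at 2 places and the GC box once on the other strand. These motifs were present in 33.8% and 32.7% of all windows and in 28.2% and 61.5% of member windows. Bsn upstream sequence was 71.6% G and C with 32 CpG sites, and Synpr 64% with 13. The table medians were 52.4% and 6, and the member medians 61% and 14.5. A further Synpr start in the table had none of the 6 motifs. These matches describe letters and not binding.

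Of the core machinery, the other genes had smaller values in the pooled RNA comparison and none passed the test. Vamp2 had 173 and 175 CPM in WT, 166 and 168 in DKO, 164.6 and 123.1 in the Fmr1 KO and 121 and 148 in the Cpeb1 KO, so the groups did not overlap, with a log2 change of -0.29 ± 0.096 (adjusted p = 0.0753, edgeR). For Syn1 the value was -0.27 ± 0.101 and for Cplx1 -0.22 ± 0.093. Cplx2 was at -0.23 and Stx1a at 0.07. Syt1, Syp, Sv2a, Snap25 and Rab3a lay closest to 0, from -0.06 to 0.01, and the sign for Syp, Snap25, Stx1a, Rab3a and Pclo changed under at least 1 alternative.

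In all, the 4 single knockout libraries were separate from the 4 others for 6 of the 72 genes, or 8.33%, against 12.2% of all genes. Of these, 4 were lower, Bsn, Syt7 and Vamp2 among them, which is 5.56% of the members beside 6.12% of all genes. Snap23 (the SNARE of constitutive exocytosis) and Stx7 (an endosomal syntaxin) were the higher ones, 2.78% beside 6.04%. At an unadjusted p under 0.05, 12 presynaptic genes were lower and 3 higher, together 20.8% of the members beside 25.7% of all genes.

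By role, 7 of 9 SNARE regulators, 6 of 9 active zone genes and 4 of 5 SNAREs of synaptic release had a change below 0, with medians of -0.13, -0.18 and -0.11. Of the other SNAREs 14 of 19 had a change above 0, with a median of 0.08. The calcium sensors (median -0.05) and vesicle proteins (median -0.02) had members on both sides. A change above 0 was seen in 47.2% of the members and 54.7% of all genes. With the length correction the active zone median was -0.05 and that of the release SNAREs -0.26. No role group had more than 1 called gene.

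Some cell markers moved in RNA in the same comparison. Excitatory neuron markers summed to 2204 to 2515 CPM in the single knockouts and 2586 to 3272 in the other libraries, and 3 of 6 (Tbr1, Camk2a and Cux2) were called lower in RNA, with a list median of -0.39. Markers of other brain regions summed to 60.7 to 113 CPM in the single knockouts and 122.8 to 160.7 in the others, with 1 of 4 called lower. Astrocyte and inhibitory lists had 1 gene each called higher. The list of all neurons, which includes the member Snap25, had a median of 0.08 with 0 of 5 called, and microglia 0.35 with 0 of 8 called. In footprints the pooled comparison called no marker and no other gene. The excitatory median there was -0.02, with sums of 3137 to 3609 CPM in the single knockouts and 3073 to 3878 in the others. None of the listed markers was at 0 in all libraries, and the part of these shifts in the Syt7, Bsn and Synpr values was not tested. Longer coding sequences also had lower pooled changes. The Pearson correlation with log2 coding length was -0.24 over the 72 members and -0.26 over all 13287 genes. With a length trend removed from each library, Syt7 kept -0.41 (adjusted p = 0.0035, edgeR), Bsn -0.47 (adjusted p = 0.00215, edgeR) and Synpr 0.24 (adjusted p = 0.0342, edgeR).

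**Figure D3:**
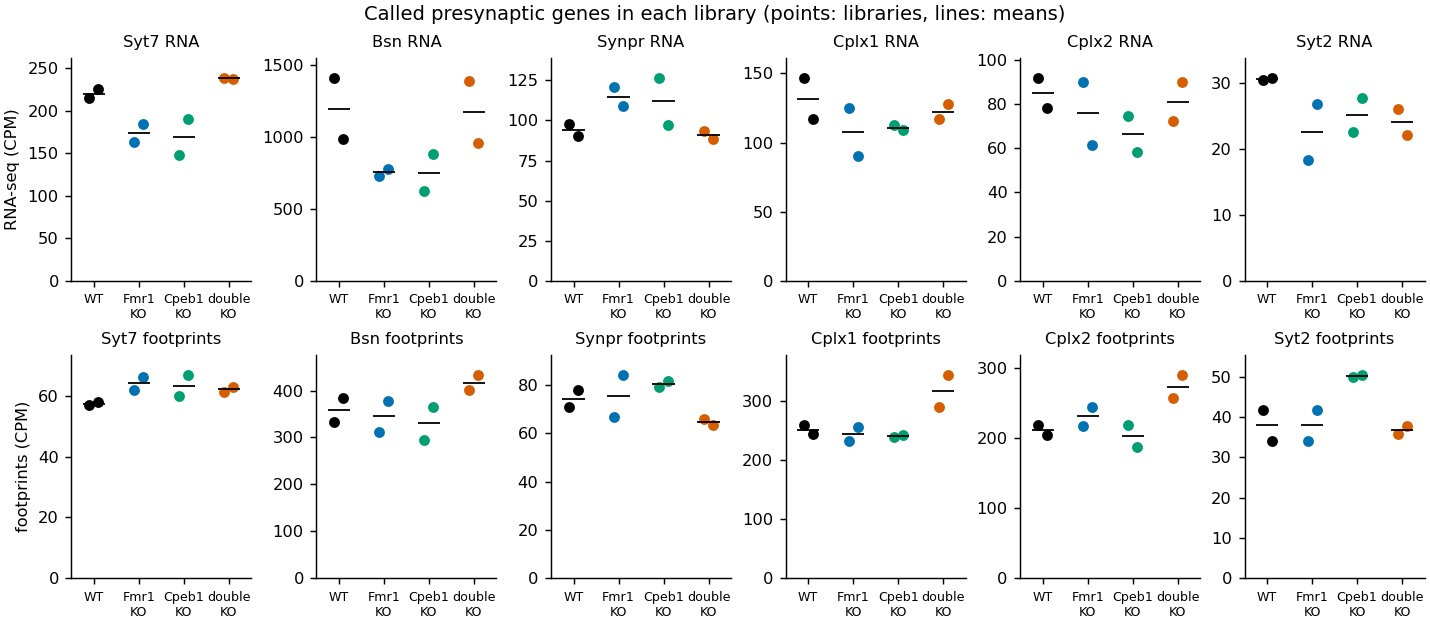
CPM in each of the 8 RNA-seq libraries (top row) and 8 footprint libraries (bottom row) for the 6 presynaptic genes called in any comparison; points are libraries, ordered 1 and 2 within a genotype, lines are means of 2, and axes start at 0. Syt7 and Bsn RNA are lower in both single knockouts, and Cplx1 and Cplx2 footprints are highest in DKO.

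Single pairs of genotypes gave no called presynaptic gene in RNA by edgeR. In the Fmr1 KO against WT the count was 0 of 72 (8 at unadjusted p under 0.05; 0 by DESeq2), beside 0.00753% of all genes. For the Cpeb1 KO against WT it was also 0 (7 unadjusted; 0 by DESeq2), beside 0%, and for DKO against WT 0 (2 unadjusted; 0 by DESeq2), beside 0.00753%. DKO against the Fmr1 KO gave 0 (7 unadjusted; 0 by DESeq2), beside 0%, and against the Cpeb1 KO 0 (9 unadjusted; 1 by DESeq2), beside 0.00753%. These comparisons share libraries, and with few genes called at all they say little about the members.

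Bsn differed from WT by -0.65 ± 0.213 in the Fmr1 KO, -0.65 ± 0.214 in the Cpeb1 KO and -0.03 ± 0.211 in DKO. For Syt7 the same values were -0.34 ± 0.118, -0.39 ± 0.118 and 0.11 ± 0.117, and for Synpr 0.29 ± 0.118, 0.25 ± 0.118 and -0.05 ± 0.119. Each of the 3 had similar values in the 2 single knockouts and a value near 0 in DKO, without a call in any of them. The 3 were picked by the pooled comparison of the same libraries, which favours this pattern, so the pattern is no separate result. The test of whether loss of Fmr1 acts differently with and without Cpeb1 (the interaction) called Syt7 in RNA, 1 of 72 or 1.39% beside 2.06% of all genes. Its interaction was 0.84 ± 0.167 on the log2 scale (adjusted p = 0.0405, edgeR). The call was lost in 7 of 13 alternatives, among them the fit without the replicate block (adjusted p = 0.0802, edgeR). That of Bsn was 1.27 ± 0.304 (adjusted p = 0.0573, edgeR), and that of Synpr -0.59 ± 0.167 (adjusted p = 0.079, edgeR). For every gene the interaction sets the single knockouts against WT and DKO, as the pooled comparison does. Only its sign and scale differ, and each genotype is fitted separately, so the Syt7 interaction restates the pooled result.

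In footprints, DKO differed most from the Cpeb1 KO. Cplx1, Cplx2 and Bsn footprints were higher in DKO and Syt2 footprints lower. These were 4 of 73 presynaptic genes, or 5.48%, level with the 5.6% (772 of 13774) of all genes called by edgeR. Their RNA was not called in the same comparison, but only 1 of 13287 genes (0.00753%) was called in RNA there. A missing RNA call therefore says little. Bsn RNA was 0.62 higher on the log2 scale, the largest RNA change upward among the active zone genes in that comparison.

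Cplx1 (complexin 1) footprints were 258 and 244 CPM in WT, 231 and 255 in the Fmr1 KO, 238 and 242 in the Cpeb1 KO, and 289 and 342 in DKO. Both DKO libraries lay above the 6 others. The log2 change against the Cpeb1 KO was 0.39 ± 0.082 (adjusted p = 0.0235, edgeR).

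Cplx2 (complexin 2) footprints were 218 and 204 CPM in WT, 218 and 245 in the Fmr1 KO, 218 and 187 in the Cpeb1 KO, and 257 and 290 in DKO. Here too the DKO libraries were the top 2. The log2 change against the Cpeb1 KO was 0.43 ± 0.096 (adjusted p = 0.0262, edgeR). The 2 complexins share their coding length of 402 nt, and their lowest footprint counts in a library were 4529 for Cplx1 and 4259 for Cplx2.

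Bsn footprints were 333 and 384 CPM in WT, 312 and 378 in the Fmr1 KO, 295 and 366 in the Cpeb1 KO, and 400 and 432 in DKO. DKO was highest again, by a smaller margin over WT library 2. Its log2 change against the Cpeb1 KO was 0.34 ± 0.070 (adjusted p = 0.0227, edgeR). Syt2, a fast calcium sensor known mostly from brainstem and fast-spiking inhibitory neurons, had 41.9 and 34.2 CPM in WT, 34.1 and 41.9 in the Fmr1 KO, 50.1 and 50.4 in the Cpeb1 KO, and 35.8 and 37.8 in DKO. The Cpeb1 KO libraries stood above the 6 others. Its log2 change between DKO and Cpeb1 KO was -0.45 ± 0.119 (adjusted p = 0.0465, edgeR). Cplx1, Cplx2, Bsn and Syt2 were picked by this comparison of the same libraries, which favours DKO or the Cpeb1 KO standing apart. That order of the genotypes is therefore no separate result.

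These 4 calls depended on the libraries compared: 0 presynaptic genes were called without Cpeb1 KO library 1, Cpeb1 KO library 2 or DKO library 2, and 1 (Cplx1) without DKO library 1. Without the replicate block, which the labels do not state, none of the 4 was called, with edgeR adjusted p of 0.0507 for Cplx2, 0.0514 for Cplx1, 0.0727 for Syt2 and 0.138 for Bsn and changes of similar size. Among the other core genes Syn1 had 0.25 ± 0.087 (adjusted p = 0.103, edgeR), Unc13a 0.24 ± 0.082 (adjusted p = 0.103, edgeR) and Vamp2 0.16 ± 0.064 (adjusted p = 0.145, edgeR), and the rest lay between -0.15 for Pclo and 0.10 for Stx1a. All 5 SNAREs of synaptic release had values above 0, from 0.03 to 0.16, none of them called, beside 48.2% of all genes above 0. Beside these values, the footprints of microglial markers summed to 49.1 to 64.8 CPM in DKO and 85.6 to 87.2 in the Cpeb1 KO, with 2 of 8 called lower. Of the astrocyte markers 2 of 8 and of the oligodendrocyte markers 1 of 8 were called lower, and of the neuron markers 1 of 5 higher. Inhibitory neuron markers summed to 2164 to 2199.5 CPM in DKO and 2226 to 2256 in the Cpeb1 KO, with none of 6 called by edgeR. Excitatory markers summed to 3352 to 3878 CPM in DKO and 3137 to 3208 in the Cpeb1 KO, with 0 of 6 called. Markers of all neurons, Snap25 among them, summed to 5633 to 5791 and 5081 to 5475. Those of other brain regions summed to 452 to 539 and 382 to 390, with 0 of 4 called and a list median of -0.11. The part of cell composition in the complexin, Bsn and Syt2 values was not tested.

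Against WT, DKO footprints of Cplx1 were at 0.33 ± 0.082 (adjusted p = 0.0548, edgeR) and those of Cplx2 at 0.37 ± 0.096 (adjusted p = 0.060, edgeR). edgeR called 0 of 73 members there, beside 2.65% of all genes; 17 had an unadjusted p under 0.05, 14 of them higher, which is 23.3% of the members beside 21.0% of all genes, and DESeq2 called 4. DKO against the Fmr1 KO gave 0 by edgeR (8 unadjusted, 2 by DESeq2), beside 0.334%, with Cplx1 nearest at 0.37 ± 0.082 (adjusted p = 0.0674, edgeR). These complexin values reuse the DKO libraries that picked Cplx1 and Cplx2, which favours a rise, so they are no separate result. The Fmr1 KO against WT gave 0 (4 unadjusted; 0 by DESeq2) beside 0.0581%, and the Cpeb1 KO against WT 0 (4 unadjusted; 0 by DESeq2) beside 0.0799%. The pooled footprint comparison gave 0 (4 unadjusted; 0 by DESeq2) beside 0%, and its 4 and 4 libraries were separate for 0 of 73 members beside 3.06% of all genes (1.92% higher and 1.13% lower). The footprint interaction gave 0 (8 unadjusted; 1 by DESeq2) beside 0.0653%. Syt7 and Bsn, which fell in RNA in the pooled comparison, thus had no called footprint change there. Syt7 footprints were 57.2 and 58.1 CPM in WT, 62.2 and 66.5 in the Fmr1 KO, 60.0 and 66.9 in the Cpeb1 KO and 61.4 and 63.2 in DKO. Both WT libraries were the lowest, by a small margin, and the 3 knockout genotypes overlapped.

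**Figure D4:**
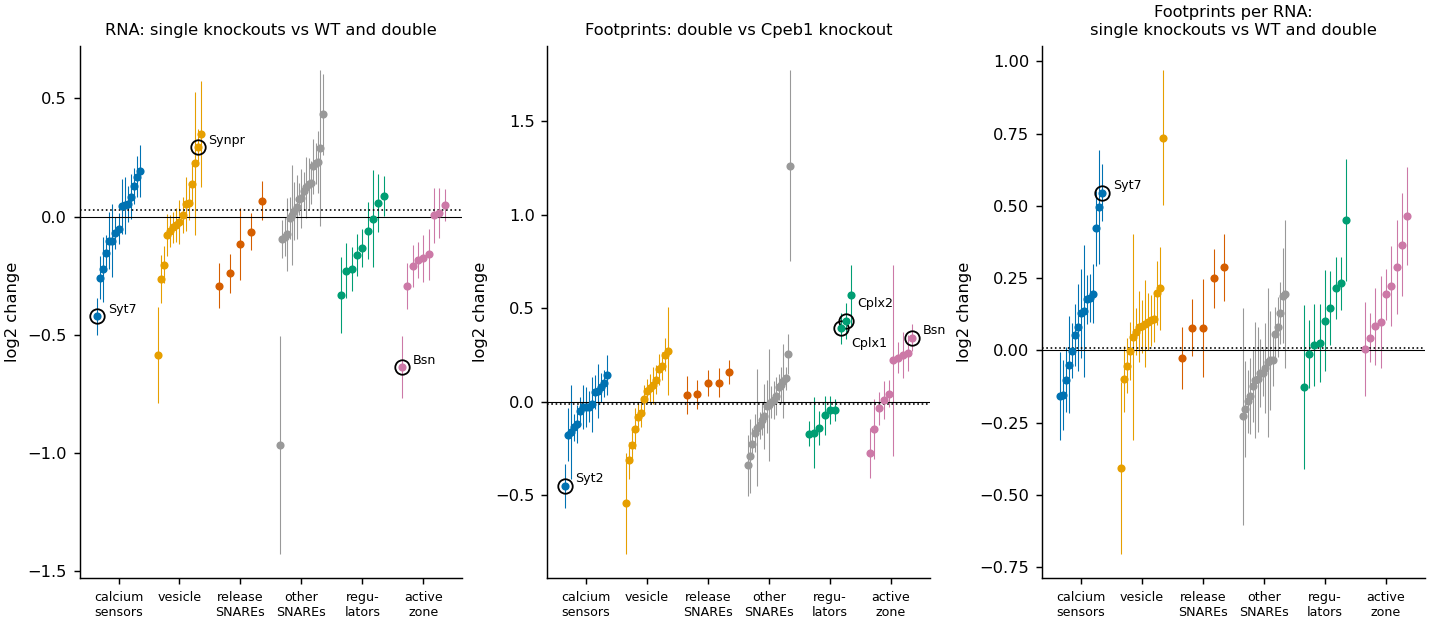
Log2 change (points) with its standard error (bars) of each presynaptic gene by role in 3 comparisons; called genes are circled and named, and dotted lines are the medians of all genes tested. The called genes are spread over several roles, and the dotted lines lie close to 0.

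Translational efficiency, taken as how far footprints changed beyond RNA in 1 model of all 16 libraries, was higher for Syt7 in the single knockouts. In the pooled comparison Syt7 was 1 of 71 members called (1.41%), beside 0.184% (24 of 13027) of all genes, a count too small to set the members apart. Its log2 change was 0.55 ± 0.098 (adjusted p = 0.0382, edgeR). In WT its footprints per RNA were -1.80 on the log2 scale, in the Fmr1 KO -1.30, in the Cpeb1 KO -1.27 and in DKO -1.80. The per-library values given above show lower RNA in the single knockouts with footprints slightly above the WT level. The call was lost in 7 of the 8 fits that left out a genotype's libraries of 1 number; it held without those of DKO number 2, and adjusted p reached 0.21 (edgeR). It was also lost without the replicate block (adjusted p = 0.0923, edgeR) and in the fit of 4 separate genotypes (adjusted p = 0.0836, edgeR).

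Among the core genes, efficiency in the pooled comparison was 0.47 ± 0.169 for Bsn (adjusted p = 0.231, edgeR) and 0.29 ± 0.117 for Vamp2. Of the active zone genes 9 of 9 had values above 0, beside 64.8% of the 71 members and 51.6% of all genes. The active zone median was 0.19, and the median of all 71 members was 0.08, beside 0.01 for all genes. The Pearson correlation of this change with log2 coding length was 0.36 over the 71 members and 0.26 over all genes. With the length correction 5 of the 9 active zone genes stayed above 0, with a median of 0.13, and 8 of 9 did with DESeq2's or total-count scaling. Against WT, edgeR called 0 of 71 members in the Fmr1 KO (8 unadjusted; 0 by DESeq2), beside 0.0154% of all genes. It called 0 in the Cpeb1 KO (10 unadjusted; 0 by DESeq2), beside 0%, and 0 in DKO (3 unadjusted; 0 by DESeq2), beside 0.00768%. The unadjusted ones were 11.3%, 14.1% and 4.23% of the members, beside 7.88%, 9.40% and 3.5% of all genes. All of these members were higher, with Syt7 and Bsn among them in both single knockouts.

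Other genes of the presynaptic pathway, from a list of 65 outside the symbol rule, had calls in the same comparisons. In the pooled RNA comparison 4 of 62 tested were lower and 0 higher, beside 7.31% of all genes called: Cacna1a (the P/Q-type calcium channel) by -0.51 ± 0.109, Rimbp2 (which links RIM to that channel) by -0.40 ± 0.079, Rph3a (rabphilin, a Rab3 effector) by -0.30 ± 0.087 and Ppfia4 (a liprin of the active zone) by -0.30 ± 0.080. Rimbp2 was the 1 of 62 with a called interaction, beside 2.06% of all genes, at 0.80 ± 0.168 (adjusted p = 0.0416, edgeR). As for Syt7, this interaction call restates the pooled change of Rimbp2. In footprints of DKO against the Cpeb1 KO 5 of 64 were higher and 2 lower, beside 5.6% of all genes called. The clathrin light chain Cltb was at 0.46 ± 0.076 and the liprin Ppfia3 at 0.48 ± 0.085. The clathrin adaptor Picalm was at -0.39 ± 0.077 and the calcium channel subunit Cacna2d1 at -0.33 ± 0.069. Against WT, Ppfia3 with 0.38 ± 0.085 and Cltb with 0.34 ± 0.076 were the 2 of 64 called, both higher in DKO, beside 2.65% of all genes.

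The authors' deposited table of the pooled RNA comparison called more presynaptic genes, 9 of 74 at an adjusted p under 0.05, beside 9.09% of all its genes. Synpr was higher and 8 were lower, Bsn, Rims4, Syn3, Syngr1, Syt3, Syt7 and Vamp2 among them. For Syt7 the authors' deposited table gives a log2 change of -0.37, and for Bsn -0.48. The authors' deposited footprint table of DKO against the Cpeb1 KO called 7 of 73, beside 7.73%, with Bsn, Cplx1, Cplx2, Syn1 and Unc13a higher and Synpr and Syt2 lower. Against WT the authors' deposited footprint table called 4 of 73, beside 4.9% (Cplx1, Cplx2 and Syngr1 higher, Stxbp5l lower), and against the Fmr1 KO 2 of 73, beside 2.35% (Bsn and Cplx1 higher). The authors' deposited RNA tables of DKO against each single knockout called Syt7 higher, beside 3.04% for the Cpeb1 KO and 1.34% for the Fmr1 KO. The authors' deposited tables called 0 members in RNA for the Fmr1 KO, Cpeb1 KO and DKO against WT, beside 0.331%, 0.961% and 0.0133% of all genes, and 0 in footprints for the Fmr1 KO and Cpeb1 KO against WT, beside 0.152% and 0.138%. The authors' deposited Xtail tables of translational efficiency called 7 of 73 members higher in the Fmr1 KO, beside 2.96% of all genes, 6 of 73 in the Cpeb1 KO, beside 2.47%, and 0 of 73 in DKO, beside 0.152%. Bsn, Syn3, Syt7 and Vamp2 were in both of the single knockout lists, which share the WT libraries, and edgeR called none of them there.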

How the data were processed

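Cortex RNA-seq and ribosome footprints were measured in 16 libraries. The authors deposited a gene table per library whose expected counts, estimates per gene in RSEM's format per the file headers, were rounded and analysed. The features appear to be coding sequences, since 99.6% of genes with a single transcript had a length divisible by 3. Build mm10, cutadapt, Bowtie2, TopHat2, RSEM and DESeq2 are named in the submitters' processing notes, without versions. The authors also deposited DESeq2 and Xtail tables with a log2 change and a p-value or adjusted p-value per gene, per the series' design text; their covariates and filters are not given in the sources used here.

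The test was that of edgeR 4.0.16 under R 4.3.3: TMM scaling, filterByExpr (minimum count 10), the quasi-likelihood test and Benjamini-Hochberg adjustment over all genes, at 0.05. Each fit held the 8 libraries of an assay, with the replicate number as a block, which the labels do not state. Translational efficiency was the interaction of assay and genotype over 16 libraries. SE is the log2 change divided by the square root of F. The script was tested on simulated data. DESeq2 1.42.0, no block, no filter, library totals, a length correction, fewer genotypes and leaving out each library were alternatives. Named genes were 16 core release genes, the members called in each comparison (at most 8 each way), and called genes of the other presynaptic list (at most 4 each way). Snap23, Stx7 and the genes of the authors' lists and of low or high footprints per RNA were named after their values were seen. The members and lists were chosen with earlier results of these data known. Upstream sequences and gene positions are from RefSeq tables of GRCm38.p6, which matched 79 members by symbol; 61 had an upstream sequence that could be used. Results for a few genes are not reported here.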

Additional observations from a re-analysis of the deposited data

Results flagged for a closer look

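The RNA interaction of Syt7 is listed because it was called: 0.84 ± 0.167 on the log2 scale (adjusted p = 0.0405, edgeR). This test asks whether the change with loss of Fmr1 differed with the Cpeb1 genotype. It sets the same libraries against each other as the pooled RNA comparison, so it restates that result and is no separate one. Called interactions were 1.39% of the members beside 2.06% of all genes. Loss of Fmr1 went with -0.34 where Cpeb1 was present (Fmr1 knockout against WT) and with 0.50 where it was absent (double against Cpeb1 knockout). The value was 1.08 between libraries numbered 1 and 0.60 between those numbered 2. The interaction stayed above 0 in 13 alternatives, from 0.70 to 0.98, and kept its call in 6 of them, with adjusted p from 0.00215 to 0.248. The call was not kept without the replicate block (0.83, adjusted p = 0.0802, edgeR).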

How the results depend on the processing

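Of 106 member counts under alternatives other than leaving out a library, 81 stayed within 1.5 times. The pooled RNA count of 3 became 5 with DESeq2, 9 with the length correction, 8 without the filter and 1 in the fit of 4 genotypes (1 to 6 without 1 library). The RNA interaction count of 1 became 7 with the length correction, 2 without the filter, 2 with library totals and 0 without the replicate block (0 to 8 without 1 library). The other RNA counts, 0 each, became 2 for the Fmr1 knockout against WT and 1 for the double against the Fmr1 knockout when only the genotypes compared were fitted; for the double against the Cpeb1 knockout 1 with DESeq2 and 3 with the length correction (0 to 3 without 1 library), and for the Cpeb1 knockout against WT 0 to 2 without 1 library. In footprints the 4 of the double against the Cpeb1 knockout became 0 without the replicate block and 9 with the genotypes compared alone (0 to 8 without 1 library). Against WT the 0 became 4 with DESeq2, 2 with the length correction, 2 without the filter, 1 with library totals and 1 with the genotypes compared alone (0 to 7), and against the Fmr1 knockout 2, 1 and 2 with DESeq2, no filter and the genotypes compared alone (0 to 2). The footprint interaction gave 1 with DESeq2 (0 to 1), and the Cpeb1 knockout footprints against WT 0 to 1. The efficiency count of 1 became 0 in the fit of 4 genotypes and 0 without the replicate block (0 to 2). The cause of these shifts was not tested.

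Signs turned in the pooled RNA comparison for genes near 0: Syp 0.010 without double knockout library 2 (from -0.066 without 1 library), Snap25 0.0077 without WT library 1 (from -0.10), Stx1a -0.0058 without WT library 2 (up to 0.12) and Pclo 0.015 with the length correction. Rab3a became -0.0081 with DESeq2, -0.061 with the length correction, -0.012 without the filter, -0.0013 with library totals, and -0.024, -0.029 and -0.052 without Cpeb1 knockout library 2, double knockout library 1 and double knockout library 2 (up to 0.059 without WT library 2). Without the replicate block all genes called in the pooled RNA comparison fell from 971 to 380 and the members from 3 to 2; deviations of same-numbered libraries correlated between -0.056 and 0.35 in RNA and -0.11 and 0.44 in footprints over 6 pairs. Not every pair was above 0.1, so the numbers were not shown to pair the libraries. Leaving out a library of an arm leaves 1, assumed to vary like the other groups. With 2 libraries per genotype, members with small changes may have gone undetected.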
